A study of Mus musculus with 16 samples.

Results

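The Slc25 genes encode the mitochondrial carriers, the family of small membrane proteins that move nucleotides, phosphate, keto acids, amino acids and cofactors across the inner mitochondrial membrane. The members described here were the genes of the deposited expression table whose symbol is Slc25a followed by a number. There were 44 of them among 25965 genes in the table. Expression was measured by RNA-seq in growing oocytes of 4 size classes by diameter (10–30 μm, 40–45 μm, 50–55 μm, and lastly 60–65 μm), with 2 libraries (A and B) per class, and in germinal vesicle (GV) oocytes, which are fully grown and for which the table holds 1 column. DNA methylation was measured by RRBS, which covers CpG-rich fragments, in 2 libraries for each class from 40–45 μm on, and by PBAT, a whole-genome bisulphite method, in 1 library of 60–65 μm oocytes. All oocytes came from wild-type mice of the C57BL/6 strain (C57BL/6Babr in the study's methods), were pooled after enzymatic digestion of the ovary, and carried no transgene, deletion or treatment. By the study's methods, from which its supplementary list of libraries differs slightly, the mice were 5–7 days old for the 10–30 μm class, 7–12 days for 40–45 μm, 9–14 days for 50–55 μm, 13–16 days for 60–65 μm and 20 days for GV oocytes, so that diameter and age moved together and cannot be told apart. Neither the labels nor the methods tie A and B to separate animals, so the p-values measure the spread between these libraries, which may be in part technical.

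Mitochondrial carriers share a fold of repeated membrane-spanning elements and work mostly as exchangers: a substrate leaves the matrix as another enters. The ADP/ATP carriers and the phosphate carrier feed the ATP synthase with ADP and phosphate and return ATP to the cytosol. Other members supply the citric acid cycle, the urea cycle, iron-sulphur cluster and heme synthesis, one-carbon metabolism and the malate-aspartate shuttle, which carries reducing equivalents into the matrix. Growing oocytes accumulate mitochondria and depend on oxidative metabolism of substrates passed on by the surrounding follicle cells.

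The values are RPKM, read counts divided by exon length and by the library total, and are therefore shares of the RNA of a library. Oocytes gain RNA as they grow, so a fall in RPKM need not be a fall in molecules per oocyte, which were not measured. Fewer cells of a type and less RNA per cell cannot be told apart in pooled samples. The libraries held between 99369453 and 198298127 counted read segments, as recovered from the steps of the RPKM values. Oocyte markers were present in all 9 columns, with all 10 of the listed markers at 1 RPKM or more and a summed level between 2496 and 3763 RPKM. The summed level of 10 granulosa cell markers was 0.828 and 0.797 RPKM at 10–30 μm, 2.99 and 2.62 RPKM at 60–65 μm and 4.11 RPKM in GV oocytes, with none of the 10 at 0. That of 9 theca and stroma markers was 4.004 and 2.86 RPKM at 10–30 μm, with 1 of the 9 at 0, and between 0.554 and 1.83 RPKM in the larger growing oocytes. Among 9 blood and endothelial markers the sum was 0.889 and 1.001 RPKM at 10–30 μm and 5.14 and 4.88 RPKM at 60–65 μm, mainly through Pecam1, and up to 2 of the 9 were at 0. Their part in the results below was not tested.

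The beginnings of 5 members are shown because the expression and methylation results turn on them. Slc25a31 and Slc25a5 are the 2 highest ADP/ATP carriers, the former known mainly from germ cells. Slc25a13 and Slc25a12 are the paralogous aspartate/glutamate carriers, of which the former had the largest rise and the latter gained methylation at its start. Slc25a30, a carrier related to the uncoupling proteins, had the next largest. Each line gives the 250 bases before the RefSeq start (GRCm38.p6), 5′ to 3′ in the direction of the gene, with CpG dinucleotides, the sites of methylation, in capitals. The windows lie at chr3:40708621-40708870 (plus strand), chrX:36795347-36795596 (plus), chr6:6217174-6217423 (minus), chr2:71367756-71368005 (minus) and chr14:75787038-75787287 (minus).
Slc25a31: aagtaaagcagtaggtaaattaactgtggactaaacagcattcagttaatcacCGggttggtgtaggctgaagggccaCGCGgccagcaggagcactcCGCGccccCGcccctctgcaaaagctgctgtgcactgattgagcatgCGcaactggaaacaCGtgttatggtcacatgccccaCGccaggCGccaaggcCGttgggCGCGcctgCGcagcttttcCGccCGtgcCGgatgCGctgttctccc
Slc25a5: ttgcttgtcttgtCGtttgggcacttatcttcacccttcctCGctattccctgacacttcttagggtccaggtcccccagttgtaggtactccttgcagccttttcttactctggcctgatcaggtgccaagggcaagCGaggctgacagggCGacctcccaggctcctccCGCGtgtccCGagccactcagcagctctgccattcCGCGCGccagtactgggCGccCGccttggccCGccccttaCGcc
Slc25a13: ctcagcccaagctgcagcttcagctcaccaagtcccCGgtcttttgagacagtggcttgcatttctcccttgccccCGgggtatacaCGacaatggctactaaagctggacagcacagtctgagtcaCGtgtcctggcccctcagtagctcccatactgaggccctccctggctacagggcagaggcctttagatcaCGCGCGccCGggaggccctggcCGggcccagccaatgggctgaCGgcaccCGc
Slc25a12: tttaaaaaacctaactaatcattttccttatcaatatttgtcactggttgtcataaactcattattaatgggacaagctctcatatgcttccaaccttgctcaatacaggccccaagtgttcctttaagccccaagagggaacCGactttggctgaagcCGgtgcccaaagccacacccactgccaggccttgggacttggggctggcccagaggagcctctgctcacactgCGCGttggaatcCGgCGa
Slc25a30: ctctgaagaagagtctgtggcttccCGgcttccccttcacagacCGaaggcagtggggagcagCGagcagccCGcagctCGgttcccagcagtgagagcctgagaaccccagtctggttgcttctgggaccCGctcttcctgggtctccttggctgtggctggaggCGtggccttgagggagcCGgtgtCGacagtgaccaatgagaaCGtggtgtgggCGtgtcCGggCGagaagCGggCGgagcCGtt

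These windows held 18 CpGs (Slc25a31), 14 (Slc25a5), 11 (Slc25a13), 6 (Slc25a12) and 16 (Slc25a30), against a median of 6 over all 32851 promoter windows of that length. RefSeq windows matched 34 of the 44 members with 43 windows, and the median of these was 11 CpGs. The palindrome CACGTG, an E-box, was found in 8 of the 43 member windows (18.6%) and in 6.02% of all windows. It lay before 7 members, Slc25a1, Slc25a13, Slc25a14, Slc25a15, Slc25a31, Slc25a33 and Slc25a36, so that it was present before Slc25a13 and absent from the window of its paralog Slc25a12. On either strand TCCCGC, an E2F-type motif, was found in 18.6% of member windows and in 16.9% of all windows, among them that of Slc25a5. TATAAA occurred in 4.65% of member windows and 12.4% of all windows, searched on both strands. Both CACGTG and TCCCGC hold a CpG, of which member windows had a higher median, and the shares were not matched for base composition. Windows of the same gene overlap in part, and a match of letters is not a binding site.

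Levels differed widely within the family. Averaged over the 8 libraries of growing oocytes, 12 members were at 5 RPKM or more, 14 between 1 and 5 RPKM, 3 between 0.5 and 1 RPKM and 15 below 0.5 RPKM, of which 11 were below 0.1 RPKM. The 29 members that reached 0.5 RPKM in at least 2 of these libraries were tested, among 10518 genes that passed the same filter. They spanned a 43.1-fold range from Slc25a15 to Slc25a13. The summed RPKM of all 44 members was 183 ± 3.70 (SD, n = 2) at 10–30 μm, 168 ± 1.43 at 40–45 μm, 162 ± 0.103 at 50–55 μm and 167 ± 1.47 at 60–65 μm, and it was 156 in the GV column. Between 50.5% and 58.8% of that sum came from the 5 highest members in every growing library, and 49.8% in the GV column.

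**Figure D1:**
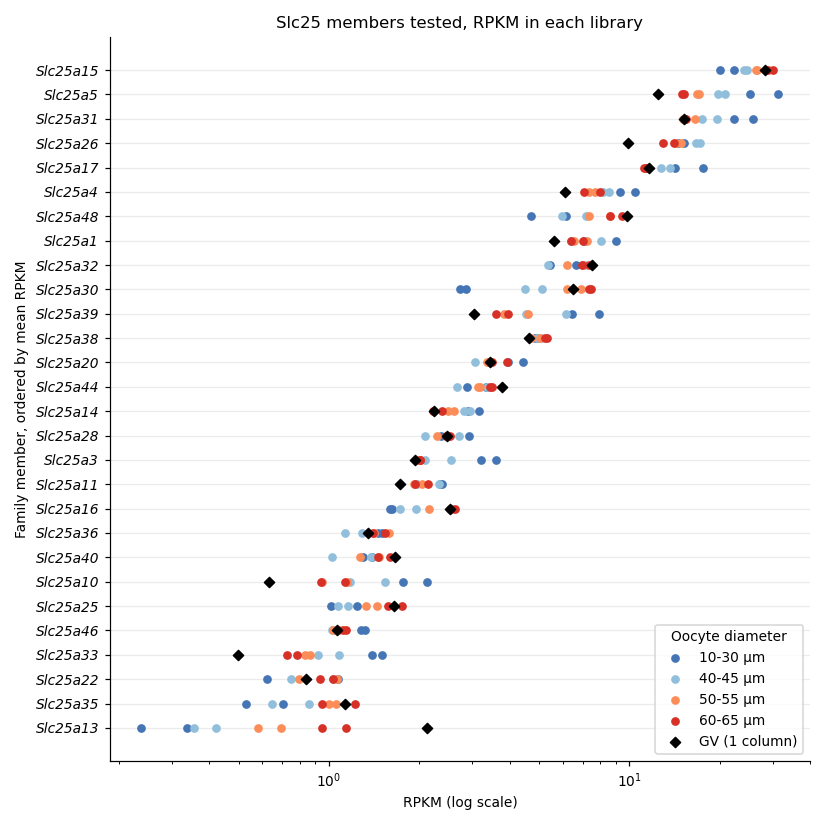
RPKM (log axis) of 28 of the tested Slc25 members in each RNA-seq library, ordered by mean RPKM, with 2 circles per size class and a diamond for the single GV column. Slc25a15 lies at the top between 20.1 and 30.1 RPKM in growing oocytes and Slc25a13 at the bottom between 0.238 and 1.14 RPKM, and the spread between size classes is widest for Slc25a13 and Slc25a30.

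Over the whole of growth, from 10–30 to 60–65 μm, 17 of the 29 tested members changed (limma on log2 RPKM with Benjamini-Hochberg adjustment over all genes tested, adjusted p under 0.05). Of these, 8 rose and 9 fell. The share of 58.6% was near that of all genes tested, of which 63.2% changed, 31.8% up and 31.5% down. The median log2 change of the members was -0.07, against 0.00 over all genes. Changes of at least 2-fold were made by 2 members, both upward, Slc25a13 and Slc25a30, where 10.8% of all genes rose and 8.01% fell by that much. In 26 of the 29 members (89.7%) the libraries of the smallest and largest class did not overlap, as in 82.1% of all genes tested, and the 3 that overlapped were Slc25a22, Slc25a28 and Slc25a36. The count was 14 without the 10–30 μm library A and 14 without the 60–65 μm library A, each time with the loss of Slc25a4, Slc25a14 and Slc25a17, and Slc25a17 was also lost without the 60–65 μm library B.

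**Figure D2:**
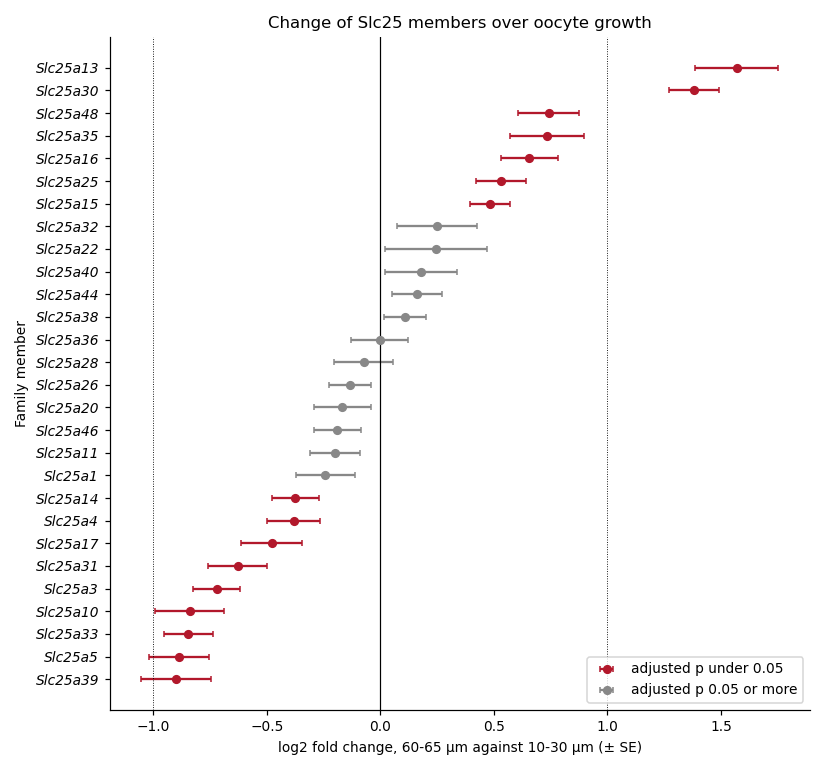
Log2 fold change of RPKM at 60–65 μm against 10–30 μm for 28 of the tested members, with bars for the standard error of the fit and dotted lines at a 2-fold change. Members past the threshold are in red, and only Slc25a13 and Slc25a30 lie beyond the dotted lines.

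The ADP/ATP carriers, 3 of 3, fell as a share of the RNA, as did 31.5% of all genes. Slc25a5 (chrX:36795651-36798807, plus strand), the form of most dividing tissues, was at 31.4 and 25.2 RPKM at 10–30 μm, 19.8 and 20.8 at 40–45 μm, 16.8 and 17.0 at 50–55 μm, 15.0 and 15.2 at 60–65 μm and 12.4 in the GV column. Each class lay below the preceding one without overlap, and the fall from first to last was 0.89 on the log2 scale (log2 -0.89, SE 0.132, adjusted p = 0.000533). An annotated processed pseudogene, Slc25a5-ps, has no row in the table, and reads of Slc25a5 that were placed there would be missing.

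Slc25a31 (chr3:40708855-40725593, plus strand), an isoform known mainly from germ cells, was at 25.8 and 22.3 RPKM at 10–30 μm, 19.5 and 17.5 at 40–45 μm, 16.5 and 15.1 at 50–55 μm, 15.4 and 15.5 at 60–65 μm and 15.3 in the GV column. The libraries of the smallest class were the highest, and those of 50–55 and 60–65 μm overlapped (log2 -0.63 from first to last, SE 0.129, adjusted p = 0.00299). For Slc25a4 (chr8:46206797-46211284, minus strand), the form of heart and muscle, the values were 10.5 and 9.30 RPKM at 10–30 μm, 8.16 and 8.55 at 40–45 μm, 7.36 and 7.67 at 50–55 μm, 7.09 and 7.96 at 60–65 μm and 6.12 in the GV column. This smaller fall (log2 -0.38, SE 0.115, adjusted p = 0.0189) was not past the threshold without the 10–30 μm library A (adjusted p = 0.0877) or without the 60–65 μm library A (adjusted p = 0.138).

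The summed RPKM of the ADP/ATP carriers was 62.2 ± 7.57 (SD, n = 2) at 10–30 μm, 47.2 ± 0.420 at 40–45 μm, 40.3 ± 0.623 at 50–55 μm, 38.1 ± 0.836 at 60–65 μm and 33.8 in the GV column. Its make-up moved less than its size. Slc25a31 provided 38.7 ± 0.818% of the sum at 10–30 μm and 40.5 ± 0.635% at 60–65 μm, and 45.1% in the GV column, where it was the highest of the 3. Slc25a5 exceeded Slc25a31 in all libraries up to 55 μm, by a ratio between 1.01 and 1.22, and was just below it at 60–65 μm, with ratios of 0.978 and 0.980.

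Slc25a3 (chr10:91116574-91124059, minus strand), the phosphate carrier, works in series with the ADP/ATP carriers. It was at 3.21 and 3.60 RPKM at 10–30 μm, 2.08 and 2.54 at 40–45 μm, 1.96 and 2.01 at 50–55 μm, 2.02 and 2.01 at 60–65 μm and 1.93 in the GV column. Its change over growth was -0.72 on the log2 scale (SE 0.104, adjusted p = 0.000457). The first step, from 10–30 to 40–45 μm, made -0.48 of this (SE 0.104, adjusted p = 0.0145), a call that was lost without the 40–45 μm library A and with only both classes fitted, and the next step -0.23 (adjusted p = 0.187) with classes that did not overlap.

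Of the 13 carriers of amino acids and acylcarnitine 7 were tested, of which 3 rose, 0 fell and 4 did not pass the test, a share of 42.9% called against 63.2% of all genes, of which 31.8% rose. Slc25a15 (chr8:22375554-22398621, minus strand), which exchanges ornithine and citrulline for the urea cycle, was the highest member of the family. Its values were 20.1 and 22.2 RPKM at 10–30 μm, 24.6 and 24.2 at 40–45 μm, 26.7 and 26.4 at 50–55 μm, 30.1 and 28.9 at 60–65 μm and 28.3 in the GV column. Every class lay above the one before, and the rise was 1.40-fold (log2 0.48, SE 0.0887, adjusted p = 0.00167).

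Slc25a13 (citrin, chr6:6041218-6217118, minus strand) imports glutamate in exchange for aspartate under the control of calcium, a step of the malate-aspartate shuttle. It was at 0.338 and 0.238 RPKM at 10–30 μm, 0.421 and 0.356 at 40–45 μm, 0.692 and 0.579 at 50–55 μm, 1.14 and 0.949 at 60–65 μm and 2.12 in the GV column. The classes did not overlap at any step, and the rise was 2.97-fold over growth on the log2(RPKM + 0.1) scale (log2 1.57, SE 0.183, adjusted p = 0.000143), although no single step passed the threshold. It passed the filter through the libraries of 50–55 and 60–65 μm, in which it was high, and remained called without a filter. Its paralog Slc25a12 (aralar, chr2:71271063-71367749, minus strand) stayed below the filter, at 0.234 and 0.263 RPKM at 10–30 μm, 0.259 and 0.284 at 40–45 μm, 0.316 and 0.305 at 50–55 μm, 0.346 and 0.334 at 60–65 μm and 0.396 in the GV column. The ratio of Slc25a13 to Slc25a12 in RPKM was 1.17 ± 0.380 (SD, n = 2) at 10–30 μm, 1.44 ± 0.259 at 40–45 μm, 2.04 ± 0.204 at 50–55 μm, 3.07 ± 0.325 at 60–65 μm and 5.34 in the GV column.

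Slc25a48 (chr13:56438355-56474239, plus strand), which has been linked to choline uptake by mitochondria, was at 4.72 and 6.14 RPKM at 10–30 μm, 5.99 and 7.20 at 40–45 μm, 7.34 and 8.63 at 50–55 μm, 8.62 and 9.46 at 60–65 μm and 9.79 in the GV column. Its B libraries were above its A libraries in every class, and the smallest and largest class did not overlap (1.67-fold, log2 0.74, SE 0.135, adjusted p = 0.0016). Not past the threshold were Slc25a20, which carries carnitine and acylcarnitine for fatty acid oxidation (log2 -0.17), Slc25a22, a glutamate carrier (0.24, called without the 10–30 μm library B), Slc25a38, a glycine carrier of heme synthesis (0.11), and Slc25a44, a carrier of branched-chain amino acids (0.16), with standard errors between 0.0933 and 0.223. The other members of the group were below the filter. Slc25a29, a carrier of basic amino acids, was between 0.158 and 0.281 RPKM in all 9 columns, and Slc25a2, Slc25a18, Slc25a45 and Slc25a47 did not exceed 0.0521 RPKM.

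Members related to the uncoupling proteins, which let protons or anions across the inner membrane, moved apart. Slc25a30 (chr14:75761999-75787037, minus strand) was at 2.74 and 2.86 RPKM at 10–30 μm, 5.12 and 4.50 at 40–45 μm, 6.89 and 6.21 at 50–55 μm, 7.37 and 7.47 at 60–65 μm and 6.49 in the GV column. Its rise was largest at the first step (1.77-fold, log2 0.83, SE 0.111, adjusted p = 0.00231), then 0.41 and 0.14 on the log2 scale, and came to 2.61-fold over growth (log2 1.38, SE 0.111, adjusted p = 2.26e-05). Slc25a14 fell from 3.03 ± 0.170 to 2.31 ± 0.112 RPKM (SD, n = 2; log2 -0.37, adjusted p = 0.0138), a call that was lost without the 10–30 μm library A or the 60–65 μm library A. The neuronal member Slc25a27 was between 0.0421 and 0.0983 RPKM in all 9 columns and was not tested.

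**Figure D3:**
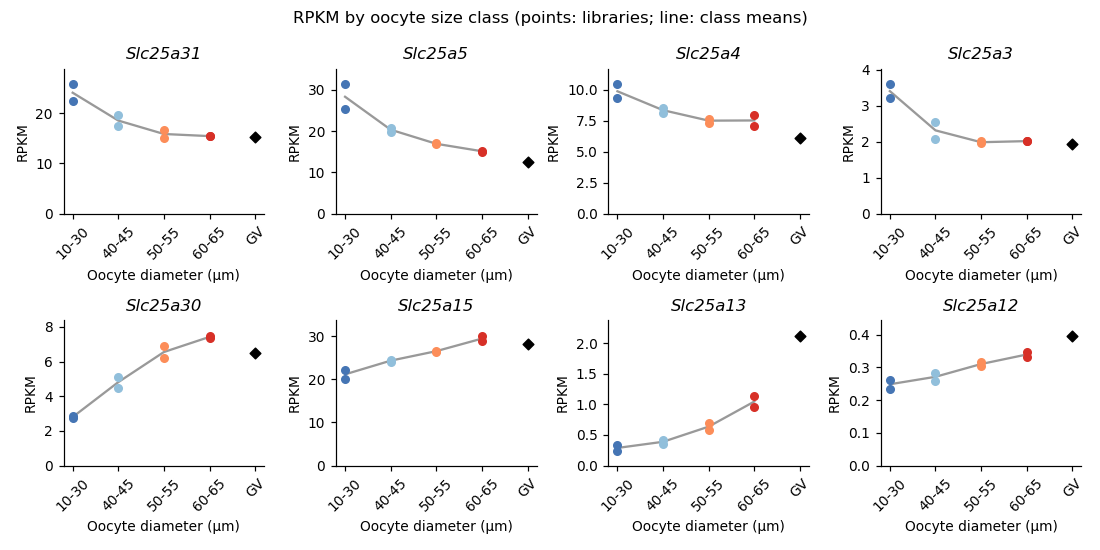
RPKM of 8 members by oocyte diameter, with a circle per library, a line through the class means and a diamond for the GV column. The ADP/ATP carriers Slc25a31, Slc25a5 and Slc25a4 and the phosphate carrier Slc25a3 descend, whereas Slc25a30, Slc25a15 and Slc25a13 ascend, and Slc25a13 is at 2.12 RPKM in the GV column against 0.396 RPKM for Slc25a12.

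Of 7 carriers of cofactors and nucleotides tested, 2 rose, 2 fell and 3 did not pass the test (57.1% called, against 63.2% of all genes). Slc25a26 (chr6:94500314-94604648, plus strand) brings S-adenosylmethionine, the methyl donor, into mitochondria. It was at 14.6 and 15.2 RPKM at 10–30 μm, 17.2 and 16.7 at 40–45 μm, 14.3 and 14.8 at 50–55 μm, 12.9 and 14.1 at 60–65 μm and 9.93 in the GV column. The 40–45 μm libraries were the highest and the GV column the lowest, and the change over growth was not past the threshold (log2 -0.13, SE 0.0945, adjusted p = 0.246). A stretch of 120 bases overlaps Lrig1 on the other strand, a gene of 18.4 RPKM, and whether the counting used the strand is not stated.

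Slc25a17 (chr15:81318921-81360765, minus strand) lies in the peroxisomal membrane and carries coenzyme A, FAD and NAD. Its values were 17.6 and 14.2 RPKM at 10–30 μm, 13.6 and 12.8 at 40–45 μm, 11.5 and 11.3 at 50–55 μm, 11.4 and 11.2 at 60–65 μm and 11.6 in the GV column. The 10–30 μm library A stood above the rest, and the fall (log2 -0.48, SE 0.135, adjusted p = 0.0141) was -0.28 without that library (adjusted p = 0.0507), with adjusted p = 0.0621 without the 60–65 μm library A and 0.0666 without B. Slc25a16, which has been linked to coenzyme A transport, rose from 1.61 ± 0.0122 to 2.59 ± 0.0733 RPKM (log2 0.66, adjusted p = 0.00203).

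The pyrimidine nucleotide carrier Slc25a33 fell from 1.44 ± 0.0740 to 0.755 ± 0.0419 RPKM (SD, n = 2; log2 -0.84, adjusted p = 0.000234), and at the first step by 0.43 on the log2 scale (log2 -0.43, adjusted p = 0.0237). The call at the first step was lost without the A library of 10–30, of 40–45 or of 50–55 μm, with no filter and with only both classes fitted. The other pyrimidine nucleotide carrier, Slc25a36, was between 1.13 and 1.58 RPKM throughout (log2 0.00, SE 0.125), and the folate and FAD carrier Slc25a32 between 5.38 and 7.49 RPKM (log2 0.25, SE 0.176). The coenzyme A carrier Slc25a42 was below the filter, with 0.138 ± 0.000148 RPKM at 10–30 μm, 0.0412 ± 0.00437 at 60–65 μm and 0.0244 in the GV column.

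Of the di- and tricarboxylate carriers, Slc25a1 (chr16:17925211-17928219, minus strand), which exports citrate for lipid synthesis and acetyl-CoA, was at 7.07 and 9.01 RPKM at 10–30 μm, 6.42 and 8.06 at 40–45 μm, 6.56 and 7.22 at 50–55 μm, 6.42 and 7.0 at 60–65 μm and 5.63 in the GV column. Its classes overlapped at every step, and its change over growth was not past the threshold (log2 -0.24, SE 0.130, adjusted p = 0.135). Its A library was below its B library in every class, and the change was between -0.37 and -0.12 with 1 library left out. The dicarboxylate carrier Slc25a10 fell from 1.94 ± 0.244 to 1.04 ± 0.134 RPKM (SD, n = 2; log2 -0.84, adjusted p = 0.00156). Slc25a11, which exchanges oxoglutarate for malate in the malate-aspartate shuttle, was between 1.72 and 2.38 RPKM (log2 -0.20, adjusted p = 0.145) and overlaps Rnf167 by 245 bases, and Slc25a21, an oxodicarboxylate carrier, did not exceed 0.00525 RPKM.

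Among the carriers of iron and glutathione, Slc25a39, which brings glutathione into the matrix, fell from 6.45 and 7.93 RPKM at 10–30 μm to 3.60 and 3.95 RPKM at 60–65 μm (log2 -0.90, SE 0.152, adjusted p = 0.0011), a fall close in size to that of Slc25a5. Its homolog Slc25a40 was not past the threshold (log2 0.18, SE 0.158). The iron importer Slc25a28 (mitoferrin-2) was between 2.08 and 2.93 RPKM in all 9 columns (log2 -0.07, SE 0.129). Its erythroid counterpart Slc25a37 (mitoferrin-1) lay below the filter, with 0.334 ± 0.0421 RPKM at 10–30 μm, 0.134 ± 0.0272 at 60–65 μm and 0.0788 in the GV column.

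Slc25a25, a carrier of ATP-Mg and phosphate that is regulated by calcium, rose from 1.13 ± 0.158 to 1.66 ± 0.125 RPKM (SD, n = 2; log2 0.53, adjusted p = 0.0033), and 989 bases of it overlap Naif1 (0.604 RPKM) on the other strand. Its relatives were low: Slc25a23 was between 0.172 and 0.494 RPKM and overlaps Crb3 on the other strand, a gene of 9.99 RPKM, Slc25a24 did not exceed 0.0264 RPKM, and Slc25a41 was listed at 0 in all 8 growing libraries and at 0.00379 RPKM in the GV column. Slc25a35, whose substrate is not settled, rose from 0.616 ± 0.124 to 1.08 ± 0.194 RPKM (log2 0.73, adjusted p = 0.00444), and 1882 bases of it overlap Rangrf (1.56 RPKM) on the other strand. Slc25a34 and Slc25a43, also without a settled substrate, did not exceed 0.0339 RPKM. The outer membrane member Slc25a46, which takes part in mitochondrial dynamics, was between 1.02 and 1.32 RPKM (log2 -0.19, SE 0.104, adjusted p = 0.143).

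Consecutive classes gave fewer calls. Between 10–30 and 40–45 μm, 4 of 29 members changed (13.8%, against 23.0% of all genes tested, 13.2% up and 9.84% down), of which 2 rose and 2 fell. The rise of Slc25a30 and the falls of Slc25a3 and Slc25a33 at this step are given above. The libraries of the 2 classes did not overlap in 18 members, 6 higher and 12 lower, and in 59.5% of all genes. The count ranged from 1, without the 40–45 μm library A, to 8, without the 10–30 μm library B, and was 2 without the 10–30 μm library A or the 50–55 μm library A. With RPKM taken without further scaling, the 7 members called were 1 higher and 6 lower, where the scaled values gave 2 and 2, and the share of higher genes among all calls was 41.7% in place of 57.2%, with a shift of -0.07 in the median log2 change of all genes.

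Between 40–45 and 50–55 μm, limma called 0 of 29 members, whereas 8.75% of all genes changed. The classes did not overlap in 18 members, 9 higher and 9 lower, and in 59.5% of all genes. An unadjusted p under 0.05 was found for 9 members and 3003 of all genes, and edgeR on the recovered read segments called 0. The 10–30 μm libraries enter this comparison only through the estimate of the spread and the scaling. Leaving out either of them nonetheless gave more calls among all genes and brought in Slc25a13 and Slc25a30 upward and Slc25a5 downward. Between 50–55 and 60–65 μm, limma called 0 members and 0.00% of all genes, with 2 members and 1429 genes at an unadjusted p under 0.05 and 0 calls by edgeR. The classes did not overlap in 14 members, 10 higher and 4 lower, and in 54.4% of all genes.

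From 60–65 μm to the GV column, which has no replicate and was not tested, 27 of the 29 members stayed within 1.5-fold. On the scaled log2(RPKM + 0.1) values Slc25a13 was 1.99-fold higher and Slc25a10 was 1.51-fold lower, at 0.632 RPKM against 0.941 and 1.13. Past 1.5-fold, 2.17% of all genes tested were higher and 2.29% lower.

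Genes that act with the carriers were taken from lists. Carriers reach the inner membrane through the TOM complex of the outer membrane and the small TIM chaperones and TIM22 complex behind it. Of 14 genes of this route, 0 rose and 10 fell over growth (71.4%), against 31.5% of all genes that fell, and the median log2 change was -0.71. The filter favoured a fall of Timm22, which passed it at 10–30 μm alone, and of Tomm5, which was below it at 60–65 μm. Tomm5 had the largest change (log2 -1.84, SE 0.187, adjusted p = 7.24e-05), from 1.59 and 1.14 RPKM at 10–30 μm to 0.285 and 0.318 at 60–65 μm, followed by Tomm20, a receptor for incoming proteins (log2 -1.04, adjusted p = 0.000183), and Tomm6 (log2 -0.94, adjusted p = 0.0266). Of 12 other mitochondrial transporters tested, 3 rose and 8 fell, a share of 91.7% called against 63.2% of all genes. Among those that fell were Sfxn1, a serine carrier (log2 -1.81, adjusted p = 4.23e-05), which passed the filter through the 10–30 μm libraries alone, and Vdac1, a channel of the outer membrane (log2 -0.78, adjusted p = 0.000294). Carrier-family genes with other names were mostly low. Mtch1 fell (log2 -0.63, adjusted p = 0.000801), while Mtch2 and Ucp1, Ucp2 and Ucp3 were below the filter. Mcart1, an older symbol of Slc25a51, the carrier of NAD, stood outside the rule for members, with 3.19 ± 0.0165 RPKM at 10–30 μm and 2.78 ± 0.0349 at 60–65 μm (SD, n = 2; adjusted p = 0.105).

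Methylation was read beside these levels, since a growing oocyte gains methylation within transcribed genes while most CpG-rich starts stay unmethylated. Each position is a CpG cytosine on 1 strand with at least 5 reads, and a mean needed at least 5 positions within 1 kb of the start of the gene, or 10 within a gene. The RRBS libraries held between 607424 and 930524 such positions and the PBAT library 6619688.

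In 60–65 μm oocytes, the median methylation of the 43 members with a value was 27.0% over the whole gene by PBAT, against 15.7% over all genes with a value. Among those tested for expression the order was the other way, with 28.6% for members and 30.3% for all genes. Without the first 1 kb the median of 42 members was 50.3%, against 25.2% over all genes, and that of tested members 52.8%, against 47.7% over all tested genes. Among the tested members, 24 of 28 (85.7%) were at 40% or more beyond the first 1 kb, as were 64.1% of all tested genes. The highest was Slc25a40 at 69.9%, and the lowest were Slc25a4 at 11.3% and Slc25a13 at 18.7%. The 532 positions of Slc25a13 averaged 17.5% over the whole gene, although its RPKM had risen most.

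Members below the filter had a median of 21.8% beyond the first 1 kb (n = 14), against 8.93% for all such genes. Their values were spread out. Slc25a23 was at 60.8%, Slc25a12 at 58.8%, Slc25a42 at 46.1% and Slc25a37 at 42.6%, while Slc25a18, Slc25a21, Slc25a24, Slc25a27 and Slc25a29 were between 18.4% and 37.1% and Slc25a34, Slc25a41, Slc25a43, Slc25a45 and Slc25a47 between 3.38% and 8.18%. Across 42 members, Spearman's rho between RPKM at 60–65 μm and methylation beyond the first 1 kb was 0.49, and across the 28 tested members it was -0.088, against 0.61 over all 18753 genes and 0.03 over the 9291 tested. These are descriptions over genes measured in the same pools, and genes are not replicates. Slc25a31 had too few positions beyond its first 1 kb, and over the whole gene it averaged 13.2% over 59 positions, or 40.3% with a minimum of 1 read per position.

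**Figure D4:**
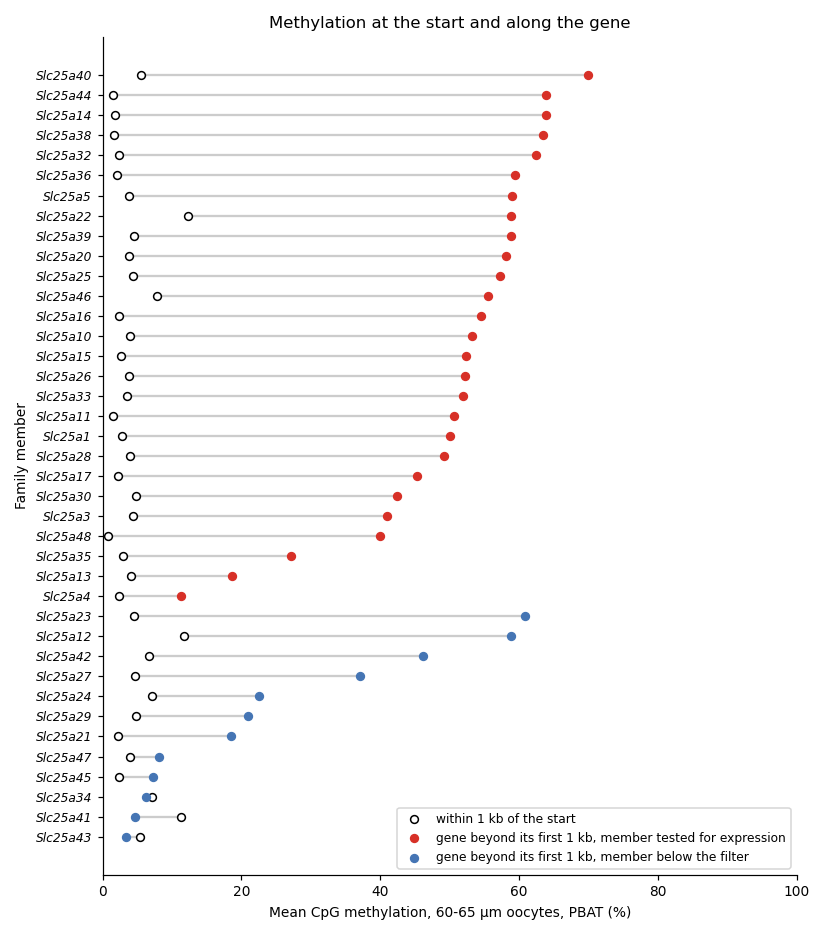
Mean CpG methylation (%) of the members in the PBAT library of 60–65 μm oocytes, with open circles for the region within 1 kb of the start and filled circles for the gene beyond its first 1 kb, red for tested members and blue for those below the expression filter. Among tested members all but Slc25a35, Slc25a13 and Slc25a4 reach at least 39.9% beyond the start, and their open circles lie between 0.769% and 12.3%.

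Starts of members had low methylation in most libraries. The median over members was between 0.603% and 1.06% in the 6 RRBS libraries, each with a value for 33 to 37 members, and over all genes between 0.383% and 0.632%. In the PBAT library it was 3.88% over 42 members and 3.87% over all genes, and the highest member was Slc25a2 at 25.3%, which had no RRBS value. Within the sequences shown above, at most 2.94% of RRBS calls were methylated for Slc25a30, 1.46% for Slc25a13 and 0 for Slc25a5. In the PBAT library it was 6.90% of 145, 4.95% of 202 and 2.80% of 107 calls, in that order. For Slc25a5 between 10 and 38 RRBS calls were at hand in a library, all from 1 or 2 CpG cytosines. At these the 0 allows shares of up to 30% in the shallowest library and 7.89% in the deepest, a bound that does not cover the whole window. The window of Slc25a31 reached 9.20% of 87 calls in the 50–55 μm library B (Wilson 95% interval 4.73 to 17.1%, counting error only) and was 0 of 260 calls in the other 50–55 μm library and 0 of 232 and 78 calls at 60–65 μm, which allow shares of up to 1.15%, 1.29% and 3.85%. At 40–45 μm 2.21% of 181 and 4.20% of 143 calls of this window were methylated, and in the PBAT library 0 of 108 (allowing up to 2.78%). The 2 RRBS replicates of Slc25a31 at 60–65 μm also differed over the wider region within 1 kb. They were at 9.96% in A and 0.28% in B over that wider region, and the PBAT library was at 7.22%. Over that region the 50–55 μm library B also stood above library A for Slc25a5 (12.4% against 1.74%) and Slc25a35 (9.26% against 0.692%), and for Slc25a36 (6.31% against 1.047%), and Slc25a34 was at 6.23% and 5.39% at 40–45 μm. These were the other members at 5% or more in any RRBS library, beside Slc25a12. Within 500 bp of the start, the 50–55 μm library B was at 0.681% for Slc25a5, 0.193% for Slc25a35 and 7.21% for Slc25a36.

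Slc25a12 differed from this in both 60–65 μm replicates. Within 1 kb of its start, methylation was 0.786% and 0.437% at 40–45 μm, 2.68% and 0.187% at 50–55 μm, 9.83% and 13.2% at 60–65 μm, and 11.8% in the PBAT library. Both 60–65 μm RRBS libraries lay above the other RRBS libraries. Of 35 members with 4 values Slc25a12 alone (2.86%) gained at least 5 percentage points with both libraries higher, as did 2.22% of all genes. In the PBAT library Slc25a12 did not stand apart, with Slc25a22 at 12.3%, Slc25a41 at 11.3% and Slc25a2 at 25.3%. With 2 libraries per class an exact permutation test cannot reach p = 0.05, and the gain was not tested. In the 250 bases from the RefSeq start on (chr2:71367506-71367755), 5 of 506 and 0 of 216 calls were methylated at 40–45 μm (the 0 allows up to 1.39%), 17 of 796 and 0 of 292 at 50–55 μm (up to 1.03%), and 57 of 483 and 73 of 448 at 60–65 μm, the last 2 being 11.8% (Wilson 95% interval 9.22 to 15.0%) and 16.3%. In the shown sequence before the start, with 4 positions in RRBS, 1.79% of 112 and 0 of 80 calls (allowing up to 3.75%) were methylated at 40–45 μm, 7.51% of 173 and 0 of 87 (up to 3.45%) at 50–55 μm, 8.61% of 151 and 7.81% of 64 at 60–65 μm, and 14 of 70 calls in the PBAT library. As in the wider region, the 60–65 μm libraries of both assays were the highest, but their order among themselves differed. The 50–55 μm library A was close to the RRBS libraries of 60–65 μm. The RPKM of Slc25a12 was higher at 60–65 μm than at 40–45 μm over the same interval, in all libraries.

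**Figure D5:**
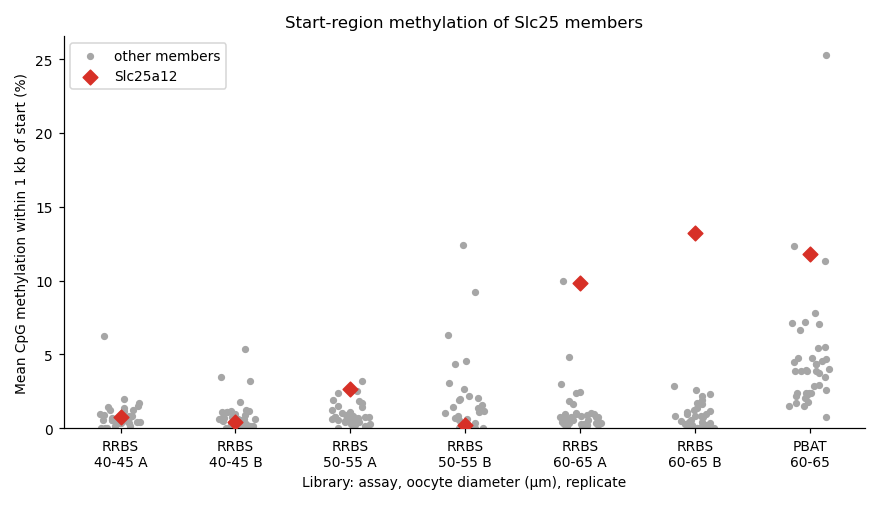
Mean CpG methylation (%) within 1 kb of the start of each member in each methylation library, with Slc25a12 as red diamonds and the other members as grey points spread sideways for legibility. Slc25a12 lies below 3% in the 4 smaller-class libraries and at 9.83%, 13.2% and 11.8% in the 60–65 μm libraries.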

How the data were processed

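RNA-seq was available for 8 libraries of growing oocytes in 4 size classes and 1 GV column, and methylation for 6 RRBS libraries and 1 PBAT library. Per the submitters' processing notes, reads were trimmed with Trim Galore 0.2.8 or 0.3.5, RNA was aligned to GRCm38 with TopHat2 2.0.9, and bisulphite reads with Bismark 0.14.0 (RRBS) or 0.10.0 (PBAT, with duplicates removed). The authors deposited a table of RPKM values per gene, although its name speaks of read counts, and the methods name Cufflinks and SeqMonk without saying which of them made it. Whether the GV column pools libraries is not stated either. For each CpG cytosine the authors deposited the percent methylated with the count of methylated and of unmethylated calls, strands apart and replicates separate.

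RPKM was tested with limma 3.58.1 (trend in the variance) on log2(RPKM + 0.1) after scaling by a trimmed mean (30% by ratio, 5% by level). Genes with 0.5 RPKM in 2 of the 8 growing libraries entered 1 fit over the 4 size classes, with a threshold of 0.05 after Benjamini-Hochberg adjustment over all 10518 genes. Fold changes are on the log2(RPKM + 0.1) scale and understate those of low genes. RPKM values were whole multiples of the value of 1 read: lengths were recovered for 18037 of 18469 genes and 43 of 44 members, and single-exon values were whole within 0.02 reads in at least 96.9% of cases. edgeR 4.0.16 was run on these segments, in which mates and spliced parts count separately, as an alternative chosen after seeing the data. The fits were tested on simulated data. Methylation was averaged over positions from these call counts (Python 3.11.15, pandas 2.3.3, numpy 2.4.6), with no test. Intervals come from scipy 1.17.1.

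The members and lists were chosen with earlier results of these data known. 1 tested member and 1 transporter of another list are not reported here by name, although counts, medians and sums include them, and every other member is named. Values in all libraries are given for the 8 highest members, those changed at least 2-fold and the ADP/ATP and phosphate carriers, and Slc25a12 was added after its values were seen. Of other lists at most 3 genes with the largest change are named, and the untested Mtch2, Ucp1, Ucp2 and Ucp3, with Mcart1, were added after their values were seen. The alternatives changed the pseudocount, filter, scaling, block, libraries and fit. Slc25a51 to Slc25a54 were not analysed here under those symbols. RRBS reads of 1 fragment start at the same base and duplicates cannot be told apart, so calls are not independent molecules.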

Additional observations from a re-analysis of the deposited data

How the results depend on the processing

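Of the 11 members given library by library that the rule names, which leaves out Slc25a12, the direction over growth was the same in all alternatives, and the call was lost in 5 of 197 alternative values, all from leaving out a library (Slc25a4 and Slc25a17), and gained in 1 (Slc25a1 with the replicate block, adjusted p = 0.033). Over growth, members called were 12 of 20 tested at a filter of 2 RPKM (63.3% of all genes) and 21 of 43 without a filter (46.5% of all genes), which adds Slc25a12 upward and Slc25a34, Slc25a37 and Slc25a42 downward, and between 14 and 18 with 1 library left out, when all genes gave 4941 to 6704 calls.

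From 10–30 to 40–45 μm, 4 members and 2421 genes were called. Members were 7 without further scaling and 1 with only both classes in the fit, which called 1108 genes, and a filter of 2 RPKM called 1527 genes. Leaving out a library gave 1 to 8 members and 859 to 3076 genes. From 40–45 to 50–55 μm, with 0 members and 920 genes, no further scaling called 1 member (Slc25a30), no filter 549 and a filter of 2 RPKM 523 genes, and leaving out a library 0 to 3 members and 0 to 1672 genes, the 0 of all genes without the 40–45 μm library B or the 50–55 μm library A. From 50–55 to 60–65 μm, a pseudocount of 1 called 8 genes, and leaving out a library 0 members and 0 genes. edgeR on the recovered read segments called 6, 0, 0 and 17 members and 2289, 925, 0 and 6409 genes in the 3 steps and over growth.

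A replicate block by the letters A and B called 12, 4, 1 and 18 members and 3321, 1851, 230 and 7296 genes in the 3 steps and over growth. The differences between A and B correlated between 0.588 and 0.669 among the classes up to 55 μm, but at -0.227, -0.0256 and 0.113 with 60–65 μm, so not every library correlated best with its own letter. The labels give the letters no shared source, and with 2 pairs a comparison they were not taken to pair libraries, although both classes of each of the first 2 steps deviated together.

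Median methylation of member genes (27.0%) was 27.5% from pooled calls, 33.6% with a minimum of 1 read, 24.99% with 10 reads and 50.3% beyond the first 1 kb. For starts, the mean of the RRBS medians (0.756%) was 0.624% within 500 bp and 0.694 to 0.786% with 1 library left out. Of the 15 members below the filter, Slc25a2, Slc25a18, Slc25a21, Slc25a34, Slc25a43, Slc25a45 and Slc25a47 had at most 11 read segments per library, which limits what can be said of them, whereas Slc25a12 had 171 to 577. The cause of these differences was not tested.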
